A study of Mus musculus with 8 samples.

Results

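The epidermal growth factor (EGF) family was followed through mouse intestinal epithelium and stroma by 9 genes of the 32285 in the deposited matrices. They were picked by symbol, and all 9 were found in each of the 8 libraries. The 6 ligands were Areg, Ereg, Egf, Hbegf, Btc and Nrg1. The 3 receptors were Egfr, Erbb2 and Erbb3.

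Ligands of this family are made as membrane-bound precursors that proteases release from the cell surface. They bind receptor tyrosine kinases that work as pairs and signal through the MAPK cascade: amphiregulin (Areg), epiregulin (Ereg), Egf, heparin-binding Egf (Hbegf) and betacellulin (Btc) bind the receptor encoded by Egfr, and neuregulin (Nrg1) binds Erbb3, whose own kinase is weak and which signals with Erbb2, a receptor with no known soluble ligand. In the intestine Egf is a standard component of organoid medium, and stromal and Paneth cell ligands of the family are known to sustain crypt stem cells.

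The series holds 3 kinds of libraries, all from mice labelled C57BL/6. Organoids are small epithelial cultures grown from crypts: 1 library came from small intestinal organoids grown alone (control) and 1 from the same kind of organoid after coculture, each at passage 1, with 16 wells pooled and 100000 epithelial cells sorted. The coculture partner is not named in the labels. A single-cell library each from small and large intestine held digested tissue sorted for live cells and enriched for LGR5+ stem cells and for CD31+ PDPN+ LYVE1+ lymphatic endothelial cells. The mice used for sorting were C57BL/6 and Lgr5-eGFP-ires-CreERT2 animals, the latter carrying a reporter at the stem cell gene Lgr5 on the same background. The number of animals in a library is not given in the sources used here, and the sort sets the share of each cell type. Visium slides, which capture RNA in spots that can each hold several cells, carried 10 µm cryosections of small and large intestine, 2 sections of each tissue as technical duplicates.

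After filtering, the organoid libraries held 538 control and 1028 cocultured cells with medians of 73664 and 86295 unique molecular identifiers (UMIs, counts of captured RNA molecules). The tissue libraries held 2695 small and 5882 large intestinal cells. In the small intestinal library 5497 of 8842 barcodes were above 20% mitochondrial UMIs, against 2060 of 8646 in the large intestinal one. No barcode occurred in both organoid libraries (0), and 25 occurred in both tissue libraries. The sections held 2094 to 2571 spots. Levels are in CPM, the usual depth-scaled unit that divides a gene's UMIs by all UMIs of the library, class or section, and all intervals are 95% intervals that cover counting error only. With 1 library per condition and duplicate sections, no difference below has a replicate check and none was tested. Levels are compared within a gene and never between genes.

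Areg, Ereg and Btc lie close together on chromosome 5. With Epgn, another family ligand, they were 4 consecutive coding genes in the RefSeq table (GRCm38.p6), and Ereg to Btc spanned 328 kb. Upstream sequences were picked by the organoid values below, for members lower in coculture by at least 1 log2 unit. The 250 bases before the gene start are shown for Areg, Btc and Egfr, 5′ to 3′ on each gene's strand. Ereg, also lower, had no promoter sequence in the source used. Capitals mark motif matches.

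Areg: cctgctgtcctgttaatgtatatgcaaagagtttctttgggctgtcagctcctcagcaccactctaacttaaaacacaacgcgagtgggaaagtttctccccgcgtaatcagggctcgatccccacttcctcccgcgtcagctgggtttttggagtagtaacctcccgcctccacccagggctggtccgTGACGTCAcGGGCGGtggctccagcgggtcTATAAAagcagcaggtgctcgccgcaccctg

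Btc: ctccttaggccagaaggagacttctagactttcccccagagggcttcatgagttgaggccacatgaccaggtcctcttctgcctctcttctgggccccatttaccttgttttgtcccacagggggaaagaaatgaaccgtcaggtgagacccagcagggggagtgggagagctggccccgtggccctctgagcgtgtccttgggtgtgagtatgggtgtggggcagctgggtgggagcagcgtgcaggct

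Egfr: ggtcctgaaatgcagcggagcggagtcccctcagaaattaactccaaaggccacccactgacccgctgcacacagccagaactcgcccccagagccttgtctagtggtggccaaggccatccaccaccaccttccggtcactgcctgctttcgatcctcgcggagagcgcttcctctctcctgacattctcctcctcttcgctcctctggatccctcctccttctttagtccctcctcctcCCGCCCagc

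The Areg window is chr5:91139349-91139598 on the plus strand, the Btc window chr5:91402995-91403244 on the minus strand and the Egfr window chr11:16751953-16752202 on the plus strand. Searched on both strands, the Areg window held the cyclic AMP response element TGACGTCA beginning 61 bases before the gene start, the GC box GGGCGG at 52 bases and the TATA box TATAAA at 31 bases. TGACGTCA was found in 1.55% of 32851 mouse promoter windows of the same table, GGGCGG in 32.7% and TATAAA in 12.4%. The Egfr window held 1 GC box on the opposite strand, 9 bases before the start. None of these motifs, nor the AP-1 motif TGANTCA (6.75% of windows) or the TEAD motif GGAATG (12.6%), was found in the Btc window. These are matches of letters and not measured binding.

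In the organoids, 4 of the 8 members with at least 20 UMIs were lower in coculture by at least 1 log2 unit: the ligands Areg, Ereg and Btc and the receptor Egfr. None was higher by as much. Of all 13953 genes with at least 20 UMIs, 5.05% were lower and 2.76% higher by that size. The median log2 ratio (coculture over control) was -0.89 over the 8 members and -0.11 over all genes. Areg passed the size narrowly: with median-of-ratios scaling it stood at -0.94, which leaves 3 of the 4.

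Areg, a ligand induced in injured and inflamed epithelium, was at 532 CPM (525 to 539) in the control and 250.2 CPM (247 to 253) in the coculture library. The log2 ratio was -1.09 (-1.11 to -1.06). The RNA was concentrated in few cells, with 50% of the UMIs in 24 of 538 control and 39 of 1028 cocultured cells. Ereg, which binds Egfr with low affinity, was at 4.07 CPM in the control (176 UMIs) and 0.753 CPM in coculture (73 UMIs), a log2 ratio of -2.43 (-2.85 to -2.03). Its UMIs too lay in few cells, with 50% in 7 control and 9 cocultured cells. Btc, a ligand of Egfr and Erbb4, was at 58.2 CPM and 25.0 CPM, a log2 ratio of -1.22 (-1.30 to -1.14). The 3 chromosome 5 ligands were thus all lower in coculture; their neighbour Epgn had 14 UMIs in the control and 4 in coculture, too few for a ratio.

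Hbegf, a heparin-binding ligand linked to epithelial repair, differed less, with 83.6 CPM in the control and 62.0 CPM in coculture (log2 ratio -0.43, -0.49 to -0.37). Egf itself was scarce, with 7 UMIs in the control and 26 in coculture, and the interval of its log2 ratio of 0.73 ran from -0.51 to 2.18. Of these UMIs, 3 and 11 lay in Paneth-like cells, the crypt cells known as a source of Egf. Nrg1 was not detected in the control: after thinning to 10000 UMIs per cell, 0 of 450 cells had a UMI, which allows a share of cells with a UMI of up to 0.667% (3 counts) and sets no limit on cells that express the gene. In coculture all 11 Nrg1 UMIs lay in the 22 enteroendocrine-like cells. The control library held 5 such cells, so a difference was not detectable at this depth.

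Among the receptors, Egfr differed most. It was at 29.2 CPM in the control (1262 UMIs) and 8.67 CPM in coculture (841 UMIs), a log2 ratio of -1.75 (-1.88 to -1.62). Erbb3, the neuregulin receptor, was at 38.8 and 24.1 CPM (-0.69, -0.78 to -0.59). Erbb2, the shared partner, was at 25.1 and 19.8 CPM (-0.34, -0.45 to -0.24). Of the 3 receptors Egfr alone passed 1 log2 unit.

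**Figure D1:**
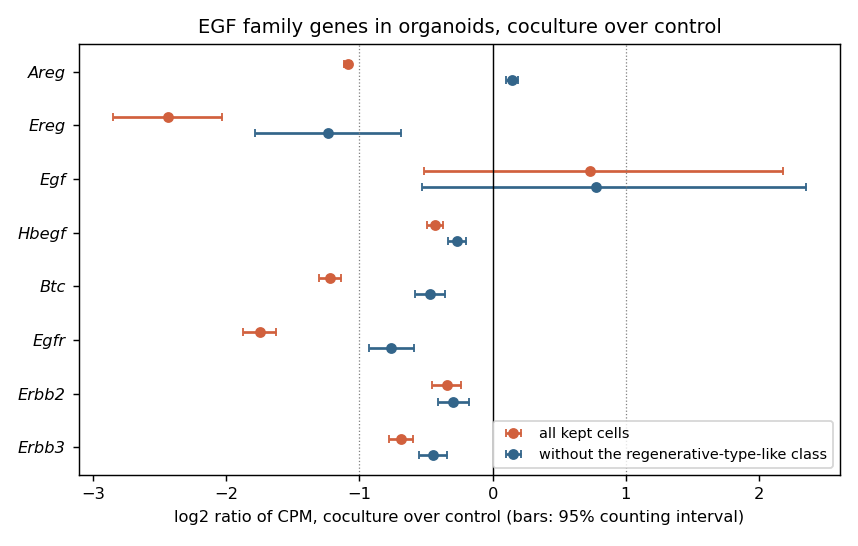
Log2 ratio of CPM, coculture over control, for the 8 members with at least 20 UMIs, over all kept cells (orange) and without the regenerative-type-like class (blue); bars are 95% counting intervals and dotted lines mark 1 log2 unit. Without that class Areg lies above 0, at 0.15, and Ereg, at -1.24, is the member still past the dotted line. Of the 57 control Ereg UMIs then left, 31 and 19 lay in unnamed clusters led by Nupr1 and Tmem237 and by Ccnb1ip1 and Rmrp.

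Much of this pattern sat in 1 cluster of organoid cells. It was named regenerative-type-like from the markers Clu, Anxa1, Ly6a and Ly6d and had 81 control and 38 cocultured cells. The members were left out of the clustering. The class held 76.3% of all Areg UMIs of the control and 37.2% of those of the coculture library, 67.6% and 16.4% for Ereg, 58.4% and 21.0% for Btc, and 62.2% and 15.5% for Egfr. Its own markers differed between the libraries, so the numbers of cells in it are not compared. Summed over these 4 markers, the level in all cells was 404 CPM in the control and 61.7 CPM in coculture. Each of the 4 was lower in coculture by at least 1 log2 unit. The part of these cells in the member ratios is given by leaving them out.

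Without the regenerative-type-like class, Areg turned from lower to slightly higher in coculture, at 146 CPM in the control and 162 CPM in coculture (log2 ratio 0.15, 0.10 to 0.19). Ereg was then at -1.24 (-1.78 to -0.69), Egfr at -0.76 (-0.93 to -0.59), Btc at -0.47 (-0.58 to -0.36) and Hbegf at -0.27 (-0.34 to -0.20). Only Ereg of the 4 stayed past 1 log2 unit. Of its 57 control UMIs then left, 31 lay in the unnamed cluster led by Nupr1 and Tmem237 (-3.35, -4.61 to -2.25). Another 19 lay in the unnamed cluster led by Ccnb1ip1 and Rmrp (interval -9.33 to -1.30). Levels ran the other way in enterocyte-like (0.237 and 1.12 CPM), cycling-like (0.157 and 0.311 CPM) and Ung and Cdc6 cluster cells (0.287 and 1.14 CPM). These rest on 1 or 2 control UMIs each, with intervals that held 0. With other clustering resolutions, cell filters and doublet handling, Areg outside the class was between 0.15 and 0.36, and inside it between 0.03 and 0.19.

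Inside the class the members did not move together. Areg was at 2895 CPM (2852 to 2938) in control cells and 3011 CPM (2949 to 3074) in cocultured ones, a log2 ratio of 0.06. In the same cells Clu, a marker of the revival state, was at 663 and 4.33 CPM and Anxa1 at 460 and 39.0 CPM. The other markers of the class differed less, Ly6a at 493 and 327 CPM and Ly6d at 920 and 808 CPM. Egfr was lower in the cocultured cells of the class (129 and 43.3 CPM, log2 ratio -1.58, -1.86 to -1.31), as was Ereg (19.6 and 4.001 CPM, -2.29, -3.29 to -1.44). Btc was at 242 and 170 CPM (-0.51, -0.66 to -0.37). Hbegf went the other way, with 189 and 275 CPM (0.54, 0.41 to 0.67). Cocultured cells of this cluster thus had nearly the same Areg level as control cells, more Hbegf, and less Egfr, Ereg and Btc.

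In the absorptive enterocyte-like class, Areg was higher in coculture and Egfr lower. Areg was at 169 CPM in the 53 control cells and 302 CPM in the 188 cocultured ones (log2 ratio 0.84, 0.72 to 0.95). The class joined 2 clusters. In the cluster led by Apoc3 and Apoa4 Areg was at 259 and 517 CPM, and in the cluster led by Gstm3 and Gstm1 at 21.4 and 113 CPM. Egfr in the class was at 16.1 and 3.93 CPM (-2.04, -2.56 to -1.52), with the difference in the Apoc3 cluster (22.8 and 3.998 CPM) and not detectable in the Gstm3 cluster (8 and 33 UMIs, interval -1.53 to 0.94). In Paneth-like cells Areg was at 22.9 and 69.4 CPM (1.60, 1.25 to 1.96). In cycling-like cells it was at 93.2 and 89.3 CPM (-0.06, -0.16 to 0.04), a level that joins 2 clusters with opposite differences. The cluster led by Hist1h3c and Prc1 had 20.4 and 33.5 CPM (0.72, 0.46 to 0.98) and the cluster led by Cdc20 and Ube2c 197 and 173 CPM (-0.18, -0.29 to -0.08). Among the unnamed clusters Areg was higher in coculture in 2, of which the cluster led by Ung and Cdc6 had 79.9 and 96.8 CPM (0.28, 0.13 to 0.42). It was lower in 3. These were the cluster led by Nupr1 and Tmem237, with 738 and 579 CPM (-0.35, -0.43 to -0.27) and 18.9% of the coculture library's Areg UMIs, the cluster led by Ada and Lars2 (-0.53, -0.87 to -0.18) and the cluster led by Ccnb1ip1 and Rmrp (-0.28, -0.47 to -0.10). The small net difference outside the regenerative-type-like class thus joins classes that differ in both directions. High levels were not confined to that class. The Ccnb1ip1 and Rmrp cluster had Areg at 2213 and 1820 CPM and Hbegf at 212 and 372 CPM, with control Ereg at 69.6 CPM (19 UMIs). Its 25 control and 28 cocultured cells held 2.62% and 1.67% of the Areg UMIs. Erbb3 was lower in coculture in enterocyte-like (56.7 and 29.8 CPM) and cycling-like cells (24.6 and 17.5 CPM), and in the regenerative-type-like class its interval reached 0 (-0.43 to 0.02).

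**Figure D2:**
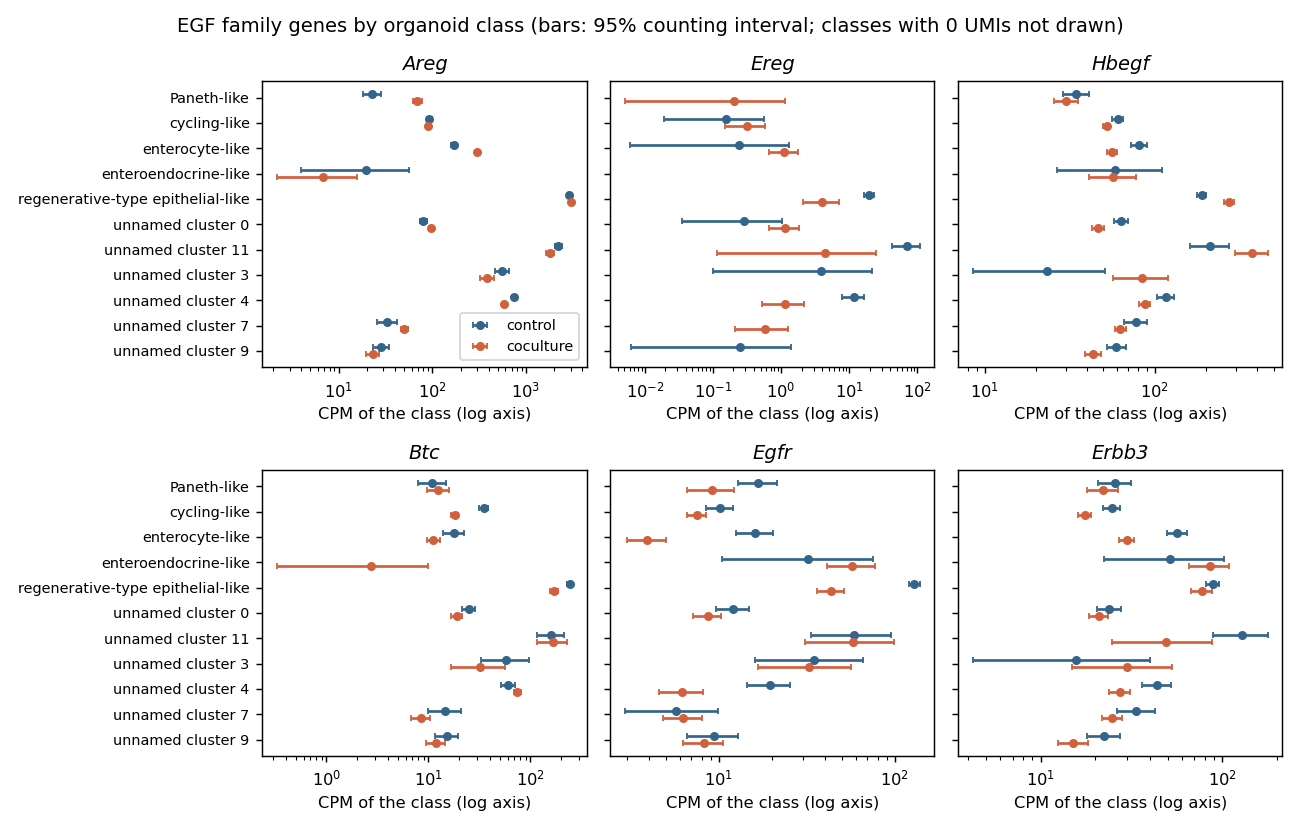
CPM of 6 members by organoid class on log axes, control in blue and coculture in orange, with 95% counting intervals; classes with 0 UMIs are not drawn and unnamed clusters had no class that met the naming rule. Areg is highest in the regenerative-type-like class in both libraries, at 2895 and 3011 CPM, while the Egfr points of that class are apart, at 129 and 43.3 CPM.

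Of the 42 listed pathway genes with at least 20 UMIs in the organoids, 2 were lower by at least 1 log2 unit and 0 higher, with a median log2 ratio of -0.29. These shares are near those of all genes, 5.05% lower and 2.76% higher. The 2 were the neuregulin gene Nrg2 (15 and 7 UMIs, log2 ratio -2.26) and the Fos-related transcription factor gene Fosl1, a response gene (189 and 149 UMIs, log2 ratio -1.51, -1.83 to -1.19). Among 4 genes of ligand shedding, 14 of the adaptors and MAPK cascade and 11 feedback inhibitors, 0 passed the size in either direction, with medians of -0.32, -0.20 and -0.40. Among 10 response genes 1 passed, with a median of -0.26. The other family genes with enough UMIs were Tgfa, an Egfr ligand, at 12.3 and 7.08 CPM (log2 ratio -0.79), and Nrg4 at 0.901 and 0.928 CPM. Erbb4 and Nrg3 had 0 UMIs in both libraries.

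In sorted tissue Areg and Hbegf were highest in absorptive epithelium, Egf in secretory epithelium, and Ereg and Nrg1 in fibroblast-like or smooth muscle-like cells. Btc was highest in stem-like cells of small and fibroblast-like cells of large intestine, in neither beyond counting error over goblet-like cells. Egfr was highest in fibroblast-like cells. Erbb2 and Erbb3 had their top values in absorptive epithelium, but neither exceeded the next class beyond counting error in either library. The highest class was taken among classes with at least 10 UMIs of the gene, a rule set after the values were seen. It had the same name in both libraries for 2 of 9 members, Egf and Egfr. The enterocyte-like class was named in the small intestinal library and the colonocyte-like class in the large intestinal one. The highest class exceeded the next beyond counting error for 4 of 9 members in the small intestine, where Nrg1 had no class with enough UMIs, and for 5 of 9 in the large. The highest class also depended on the processing. Over 8 other settings it was the same in all 8 for Egfr in both libraries, but in 3 for Erbb2 in large intestine and in 4 for Hbegf, Btc and Erbb3 in small intestine. It was the same in 5 for Ereg in small and Btc in large intestine, and in 6 or 7 for the others. With the stricter cell filter Areg in large intestine was highest in T, NK or innate lymphoid-like cells and Hbegf in an unnamed cluster. With the looser cell filter Erbb3 was highest in glia-like cells in both libraries, as was Hbegf in small intestine.

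Areg in large intestine was at 197 CPM in 420 colonocyte-like cells (189 to 206), which held 82.3% of its UMIs. Next came T, NK or innate lymphoid-like cells, at 94.1 CPM (29 UMIs, 63.0 to 135), then smooth muscle or pericyte-like cells at 34.4 CPM (22.3 to 50.8). In small intestine Areg was at 17.6 CPM in enterocyte-like cells (14.8 to 20.7) and 7.82 CPM in goblet-like cells (5.62 to 10.6). The goblet-like value joins a cluster of 65 cells led by Zg16 and Fcgbp, at 38.2 CPM (26.6 to 53.1) and above both enterocyte-like clusters (15.9 and 20.7 CPM), and a cluster of 159 cells led by Agr2 and Guca2a, at 1.39 CPM. When CPM is averaged over cells, goblet-like cells rank first. Within the colonocyte-like class, the cluster led by Cyp2c55 and Car1 had 366 CPM and the cluster led by Saa1 and Tgm3 had 44.7 CPM, so Areg was far higher in the former. Stem-like cells were low in both libraries, at 1.04 CPM (4 UMIs) in small and 2.38 CPM (45 UMIs) in large intestine.

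Hbegf followed Areg in large intestine. It was at 311 CPM in colonocyte-like cells (300 to 322), with 544 CPM in the Cyp2c55 cluster and 99.5 CPM in the Saa1 cluster. The next class, an unnamed cluster led by Ces1g, was at 67.9 CPM. In small intestine enterocyte-like cells had 74.4 CPM (68.6 to 80.6), of Hbegf, an unnamed cluster led by Dmbt1 42.7, cycling-like cells 37.2, stem-like cells 34.6 and goblet-like cells 33.0 CPM. Within the enterocyte-like class the cluster led by Fabp6 and Tmigd1 had 155 CPM and the cluster led by Fabp1 and Reg1 had 32.2 CPM. The goblet-like value also joins unlike clusters, at 163 CPM (138 to 191) in the Zg16 and Fcgbp cluster and 5.55 CPM in the other.

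Egf was highest in secretory epithelium in both libraries. Goblet-like cells had 8.11 CPM in large intestine (273 UMIs, 73.4% of the gene's total). In small intestine goblet-like cells had 7.06 CPM (4.97 to 9.73) and Paneth-like cells 5.49 CPM (4.07 to 7.23), a pair whose intervals overlap. Btc by class was at 10.4 and 10.3 CPM in stem-like and goblet-like cells of small intestine, and at 10.1 and 9.11 CPM in fibroblast-like and goblet-like cells of large intestine. The goblet-like values join unlike clusters: in small intestine Btc was at 30.6 CPM (20.3 to 44.2) in the cluster led by Zg16 and Fcgbp and 6.01 CPM in the other, and in large intestine at 20.1 CPM (16.5 to 24.2) in the cluster led by Zg16 and Spink1 and between 5.32 and 7.30 CPM in the other 3. The fibroblast-like value of large intestine joins 22.9 CPM (11 UMIs in 5 cells) in the cluster led by Adamdec1 and Tnc with 6.99 CPM in the Dcn and C3 cluster and 8.15 CPM in the Mgp and Eln cluster, whose intervals overlap with it.

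Ereg had its highest levels in stromal classes. In large intestine it was at 140.5 CPM in smooth muscle or pericyte-like cells (115 to 171) and 66.7 CPM in fibroblast-like cells (57.5 to 77.1), and in small intestine at 78.0 CPM in fibroblast-like cells (58.3 to 102) against 7.23 CPM in enterocyte-like ones. Epithelium still held a sizeable share of its UMIs: in small intestine 58 lay in enterocyte-like cells (37.9%) and 52 in fibroblast-like cells (34.0%), and in large intestine 14.5% lay in colonocyte-like cells. The fibroblast-like clusters of large intestine differed: Ereg was at 185 CPM in the cluster led by Adamdec1 and Tnc, at 111 CPM in the cluster led by Mgp and Eln, and at 0.699 CPM (1 UMI) in the cluster led by Dcn and C3. The small intestinal library gave a single fibroblast-like cluster of 91 cells, which had the muscle genes Acta2 and Tagln beside Dcn and Adamdec1 among its leading genes.

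Nrg1 had 0 UMIs in 11 of 18 classes of large intestine and in 15 of 16 of small intestine. In large intestine 217 of the 219 UMIs in fibroblast-like cells lay in the 64 cells of the Adamdec1 and Tnc cluster, which also had Bmp5 and Pdgfra among its leading genes, at 451 CPM (393 to 515). The cluster led by Dcn and C3 had 0 UMIs in 191 cells. All 57 UMIs of the smooth muscle or pericyte-like class lay in the 95 cells of the cluster led by Acta2 and Tagln, at 89.3 CPM. In the sorted small intestinal library Nrg1 had 1 UMI among the described classes, and 0 of 88 fibroblast-like cells thinned to 2000 UMIs had one, which allows a share of cells with a UMI of up to 3.41% and sets no limit on cells that express the gene. With the stricter cell filter the highest Nrg1 level of large intestine was in an unnamed cluster and the fibroblast-like class had 0 UMIs.

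Lymphatic endothelial-like cells, a target of the sort, held few UMIs of any ligand. In the 347 cells of small intestine 1 of the 6 ligands was detected, Ereg with 1 UMI, and the 5 at 0 UMIs have a limit of 2.43 CPM each, set by 3 counts. In the 205 cells of large intestine Btc and Hbegf had 2 UMIs each and Egf 1, and Areg, Ereg and Nrg1 had 0, with a limit of 5.31 CPM by the same rule. Egfr also had 0 UMIs in both, while Erbb2 was at 13.0 CPM (7.41 to 21.0) in small and 12.4 CPM (4.98 to 25.5) in large intestine. Erbb3 was at 5.67 and 15.9 CPM, on 7 and 9 UMIs. These classes held 1234919 and 564986 UMIs in all, which sets the limits.

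Egfr and Nrg1 were highest in different fibroblast-like clusters of large intestine. Egfr was at 97.1 CPM in fibroblast-like cells of large intestine (85.8 to 109) and 90.04 CPM in those of small intestine (68.7 to 116). In large intestine it was at 135 CPM in the Dcn and C3 cluster, 60.5 CPM in the Mgp and Eln cluster and 49.9 CPM in the Adamdec1 and Tnc cluster. Enteroendocrine-like cells came next in both libraries, at 42.2 CPM in large (21 UMIs) and 20.5 CPM in small intestine (9 UMIs). Stem-like cells had 16.4 CPM (12.6 to 21.0) in small and 10.8 CPM in large intestine. Erbb2 was at 46.9 CPM in enterocyte-like and 36.9 CPM in stem-like cells of small intestine, and at 35.7 CPM in colonocyte-like, 34.1 CPM in enteroendocrine-like (17 UMIs) and 21.4 CPM in stem-like cells of large intestine. Erbb3 was spread over the whole epithelium, at 126 CPM in enterocyte-like, 118 CPM in enteroendocrine-like, 101 CPM in stem-like and 80.2 CPM in cycling-like cells of small intestine. In large intestine it was at 78.2 CPM in colonocyte-like, 63.4 CPM in tuft-like and 59.0 CPM in stem-like cells.

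**Figure D3:**
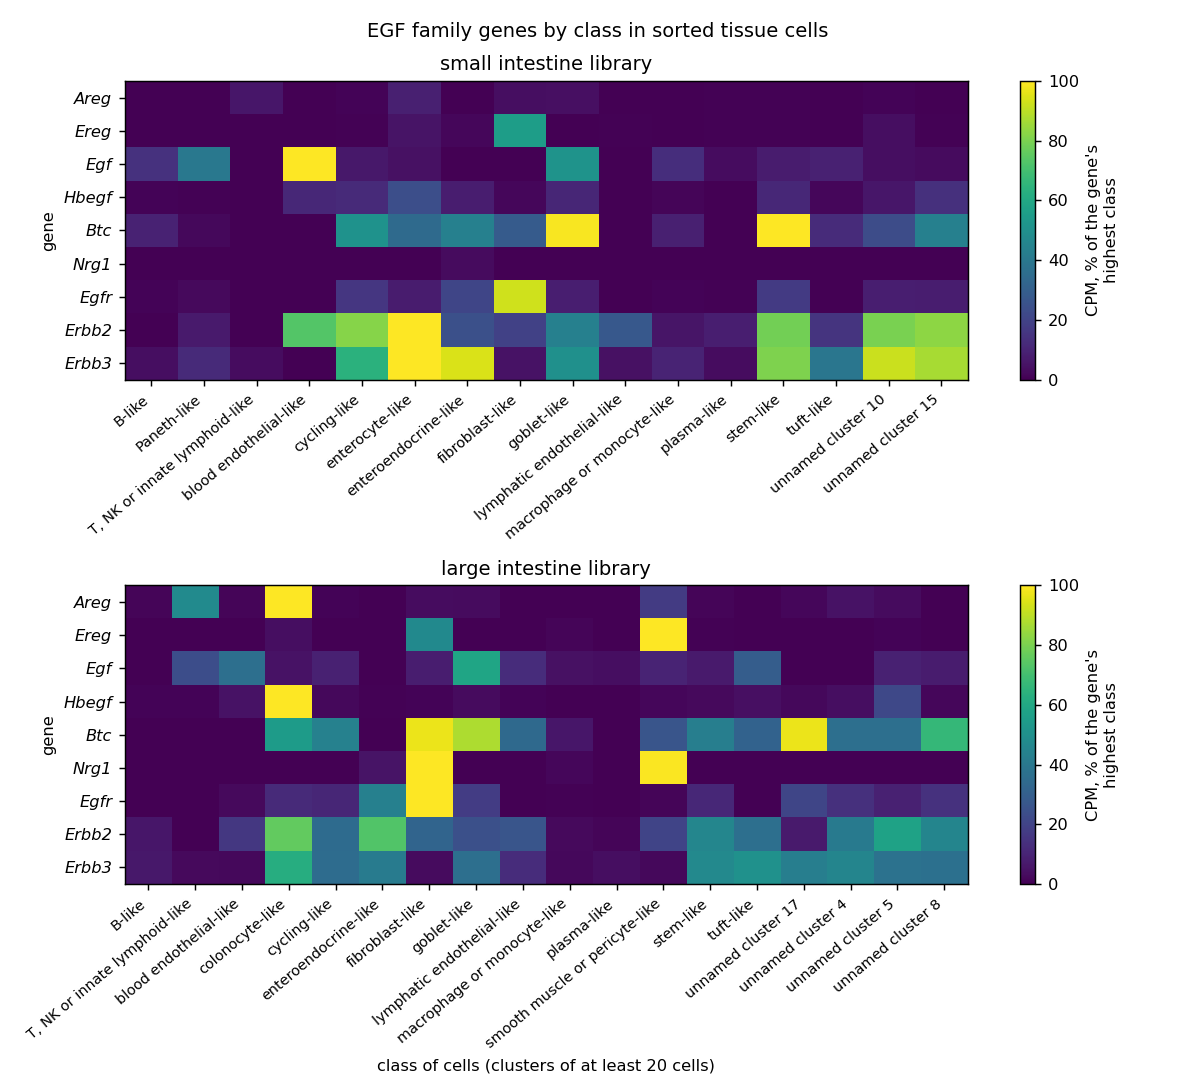
Level of each member in each class of at least 20 cells, as percent of the gene's highest class over both tissue libraries (colour), small intestine above and large intestine below. Bright cells of Areg and Hbegf lie in the colonocyte-like class, those of Ereg and Nrg1 in fibroblast-like and smooth muscle or pericyte-like classes, and Erbb2 and Erbb3 are bright across many epithelial classes; the bright Egf cell of the blood endothelial-like class rests on 2 UMIs.

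Between the tissues, stem-like cells of small intestine had more Hbegf and Btc than those of large intestine: 2 of 8 members with at least 20 UMIs were higher by at least 1 log2 unit, against 7.68% of 12267 genes, and Areg (4 and 45 UMIs) was lower by that size with an interval that reached 0.26, against 7.77% of genes. Hbegf had 34.6 CPM in small intestine and 7.67 CPM in large (log2 ratio 2.17, 1.82 to 2.52). With the stricter cell filter this was 0.39, and with doublets kept 1.09. Btc was at 10.4 and 4.44 CPM (1.23, 0.65 to 1.79). Erbb3 was at 101 and 59.0 CPM (0.78, 0.61 to 0.95), Erbb2 at 36.9 and 21.4 CPM (0.79, 0.50 to 1.06) and Egfr at 16.4 and 10.8 CPM (0.60, 0.17 to 1.02). In cycling-like cells 2 of 7 members were higher in small intestine, against 8.01% of genes: Hbegf (37.2 and 6.72 CPM, 2.47) and Erbb2 (38.3 and 16.4 CPM, 1.22), and 0 were lower, against 12.4%. In goblet-like cells Hbegf was higher in small intestine (33.0 and 8.82 CPM, 1.90), 1 of 7 members against 6.57% of genes. This difference lay in the Zg16 and Fcgbp cluster of small intestine (65 cells, 163 CPM), while the other 159 goblet-like cells were at 5.55 CPM and the goblet-like clusters of large intestine at 2.66 to 33.3 CPM. Egfr was lower in goblet-like cells of small intestine (8.02 and 17.3 CPM, -1.11, -1.60 to -0.66), also 1 of 7, against 12.9%; by cluster it was at 5.32 and 20.7 CPM there and between 11.3 and 25.4 CPM in large intestine. In fibroblast-like cells 2 of 6 members were lower in small intestine, against 7.7% of genes, and 0 higher, against 7.96%. They were Nrg1, with 0 and 219 UMIs (log2 ratio at most -4.13 with the count of 0 set to 3), and Btc, with 2 and 28 UMIs and an interval that reached 0.24. In fibroblast-like cells Ereg was at 78.0 and 66.7 CPM, within counting error, but this pair is not stable: its log2 ratio was at most -2.41 with the looser cell filter, where the small intestinal class had under 3 UMIs, and 5.52 with the stricter one. Tissue and library cannot be told apart here.

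For each member the genes with the most similar profile over 34 classes of both libraries were found by Pearson correlation of log2(CPM + 10). The classes share libraries and depth, so these are descriptions. Ereg lay nearest to Podn (r = 0.98), Clip4 and Ednra, Nrg1 to Rab38 (0.98), Fgf7 (0.97) and Chsy3, and Erbb3 to Chmp4c (0.97), Misp and Epb41l4b. The remaining members had neighbours with lower r: Erbb2 with Trim2 (0.88), Egfr with Entpd2 (0.82), Hbegf with Slc26a3 (0.80), Egf with Myrip (0.79), Btc with Tcea3 (0.78) and Areg with Eno3 (0.77).

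In the Visium sections, Ereg was higher in small intestine and Egf in large intestine by at least 1 log2 unit. These were 1 of 9 members in each direction, against 16% of 16839 genes that were higher and 14% that were lower in small intestine. The sections of the tissues did not overlap for 9 of 9 members, against 83.6% of all genes, so this count is close to that of genes in general. With mitochondrial and ribosomal protein genes left out of the totals, Areg (-1.08) and Btc (-1.09) also passed the size, which made 3 lower members. Sections of a tissue are technical duplicates, and fewer cells of a type cannot be told apart from less RNA per cell in them.

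Ereg was at 12.9 and 13.3 CPM in the small intestinal sections and at 4.56 CPM in both large intestinal ones (log2 ratio 1.52, small over large). Egf was at 0.657 and 0.465 CPM in small and 1.24 and 1.30 CPM in large intestine (-1.18), on 14 to 57 UMIs per section. Hbegf stood at 35.1 and 38.1 CPM in the former and 19.3 and 19.2 CPM in the latter (0.93). Areg was at 16.4 and 17.5 CPM against 31.0 and 33.6 CPM (-0.93), and Btc at 1.93 and 2.59 CPM against 4.58 and 4.11 CPM (-0.94). Hbegf, Areg and Btc thus stayed under 1 log2 unit.

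Nrg1 was at nearly the same level in both tissues, with 4.35 and 4.09 CPM in small and 4.56 and 4.61 CPM in large intestine. Its 106 and 123 UMIs in the small intestinal sections stand beside the 1 UMI in the described classes of sorted small intestinal cells. The receptors were close between the tissues: Egfr was at 18.8 and 21.6 CPM against 23.7 and 22.3 CPM, Erbb2 at 86.9 and 82.8 CPM against 72.1 and 75.9 CPM, and Erbb3 at 125 and 133 CPM against 113 and 114 CPM.

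**Figure D4:**
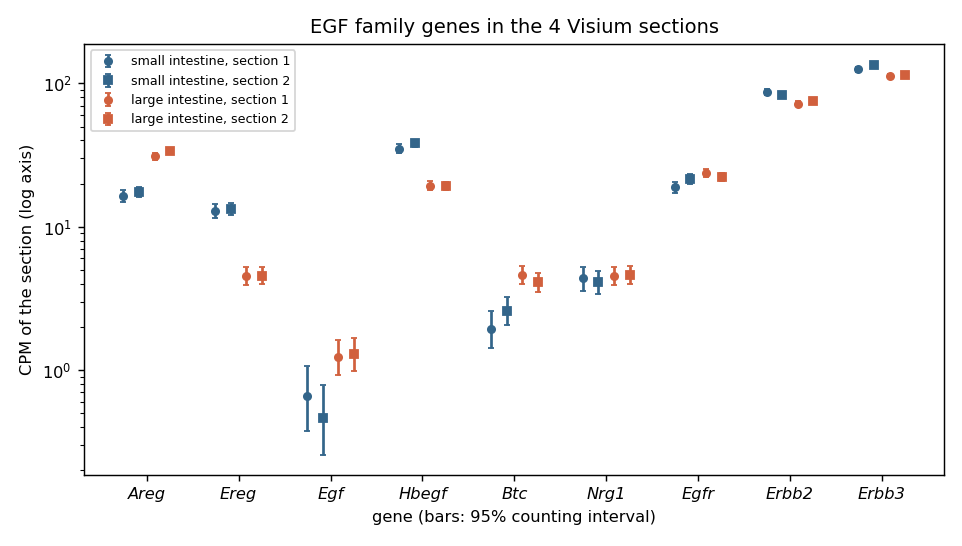
CPM of each member in the 4 Visium sections on a log axis, small intestine in blue and large intestine in orange, with 95% counting intervals. The Ereg points of small intestine, at 12.9 and 13.3 CPM, lie above those of large intestine, at 4.56 CPM in both, and the 4 Nrg1 points lie between 4.09 and 4.61 CPM.

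Spots were assigned to zones by marker genes that exclude the members: a spot belonged to a zone where its summed zone genes, after thinning to 2000 UMIs, lay above the 80th percentile of its section. Ratios compare these spots with the other spots of the same section, and each is given for section 1 and section 2. In colon surface spots (Aqp8, Slc26a3, Car4, Guca2a and Krt20) 3 of 9 members were higher by at least 1 log2 unit in both sections, against 4.9% of 14465 genes. Areg was at 89.5 CPM in surface spots and 17.02 CPM in other spots of section 1 (2.39, 2.23 to 2.56), and at 102 and 16.6 CPM in section 2 (2.62, 2.47 to 2.78). Hbegf had log2 ratios of 2.02 and 2.12 and Nrg1 of 1.83 (1.39 to 2.25) and 2.01 (1.60 to 2.42). Among the receptors Erbb3 had 1.06 and 0.996, the latter just under 1, followed by Erbb2 (0.71 and 0.56) and Egfr (0.63 and 0.49). The 3 members past 1 log2 unit in both sections were thus ligands, and none of the receptors passed in both.

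In villus tip spots of small intestine (Ada, Nt5e, Apoa4, Creb3l3, Klf4 and Slc28a2) 2 of the 8 members with enough UMIs were higher by that size in both sections, against 2.84% of 13750 genes. Hbegf was at 69.1 and 25.4 CPM in tip and other spots of section 1 and at 74.3 and 29.5 CPM in section 2 (1.44 and 1.33). Nrg1 had log2 ratios of 1.38 (0.80 to 1.96) and 1.13 (0.56 to 1.69). Areg had ratios of 0.83 and 0.63 and Egfr of 0.47 and 0.95, while Ereg had ratios of opposite sign in the 2 sections (0.36 and -0.72). Erbb2 did not differ beyond counting error at the tip (-0.15 and -0.08).

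Crypt base spots (Lgr5, Ascl2, Olfm4, Slc12a2, Cdca7 and Gkn3) were low in Areg, Hbegf and Nrg1. Areg had log2 ratios of -2.62 and -2.15 in small and -2.42 and -2.37 in large intestine, and Hbegf of -1.31 and -2.08 in small and -3.04 and -1.91 in large intestine. Nrg1 was at 0.997 and 1.54 CPM in crypt base spots of small intestine, against 4.84 and 4.36 CPM elsewhere. Egfr was nearly even between crypt base and other spots (-0.02 and -0.38 in small, 0.05 and -0.13 in large intestine, with intervals that all held 0). Ereg in crypt base spots of small intestine had ratios of -0.65 (-1.29 to -0.07) and -2.05 (-3.18 to -1.11), and in large intestine its intervals held 0. Btc (5 to 17 UMIs) and Egf (3 to 7 UMIs) had too few UMIs in crypt base spots for a difference to be detectable: each of their intervals held 0. In Paneth spots Egf was at 2.65 and 0.248 CPM in section 1 (11 UMIs, 3.42, 1.77 to 5.29) and at 1.52 and 0.309 CPM in section 2 (6 UMIs, 2.29, 0.49 to 4.01).

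**Figure D5:**
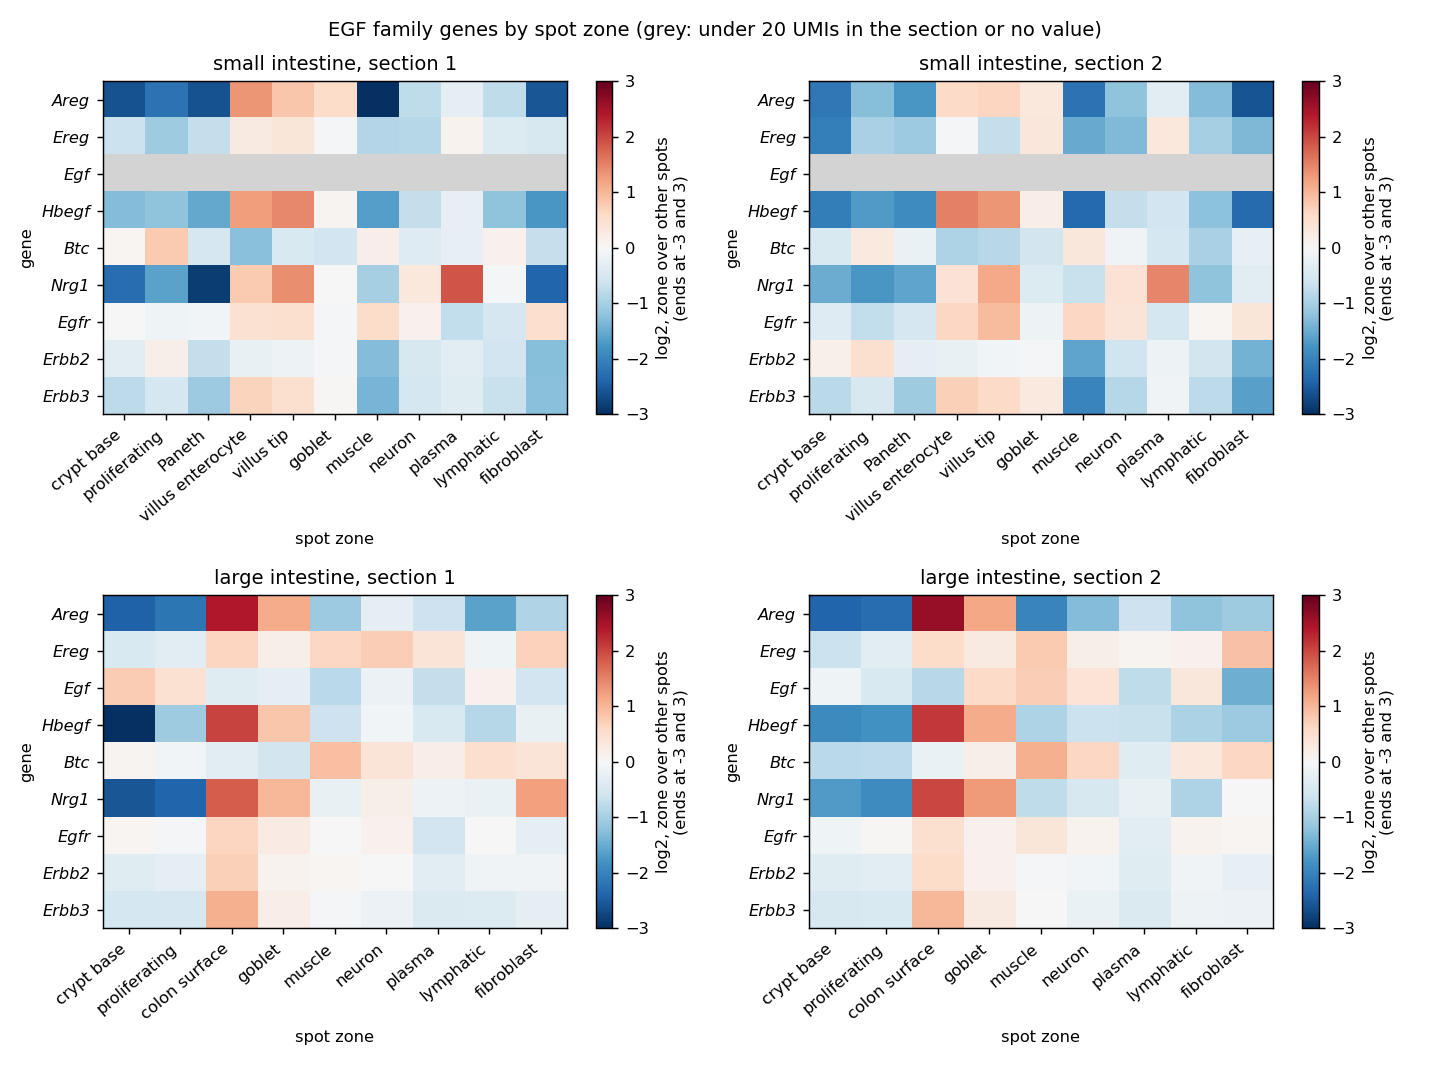
Log2 ratio of CPM in the spots of a zone over the other spots of the section (colour, red higher and blue lower, ending at -3 and 3) for each member and zone, in the 4 sections. Areg, Hbegf and Nrg1 are blue in crypt base and proliferating spots of all 4 sections and red in colon surface spots, where Areg reaches 2.39 and 2.62.

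Nrg1 was higher in plasma cell spots of small intestine (1.88, 1.29 to 2.46, and 1.47, 0.92 to 2.01) and not detectably different there in large intestine (-0.15 and -0.23). Spots were also clustered, without the zone genes being singled out. In small intestine the region led by Iglc1, Jchain and Igha, which are immunoglobulin genes, had 29.3 and 17.2 CPM of Nrg1, and the region led by Slc28a2, Ada and Apoa4 had 7.18 and 7.35 CPM. In large intestine Nrg1 was highest in the region led by Emp1, Cyp2c55 and Slc9a3, at 13.4 and 14.4 CPM, and in the region led by S100g, Atp12a and Slc37a2, at 12.1 and 12.2 CPM. The Emp1 region was also the one with the most Areg, at 125 and 127 CPM, and Hbegf, at 66.3 and 62.8 CPM. In large intestine the Emp1 region was also the one with the most Ereg, at 9.72 and 9.62 CPM, against 6.56 and 6.01 CPM in the muscle region led by Actg2, Vip and Cnn1, whose ratios to other spots had intervals that held 0. Ereg in small intestine was at 22.4 and 23.9 CPM in the Iglc1 region and 18.7 and 20.3 CPM in the region led by Sis, Slc10a2 and Enpep, against 8.68 and 6.03 CPM in the muscle region led by Actg2, Tpm2 and Myh11.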

How the data were processed

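Genes were counted by Cell Ranger 6.0.1 for single cells and Space Ranger 1.2.1 for Visium on mm10, per the submitters' processing notes. The deposited matrices hold UMI counts per gene and barcode, with no normalization. Kept cells had 500 or more genes and no more than 20% mitochondrial UMIs, and kept spots had 500 or more UMIs. Doublets (Scrublet scores, 0.8% per 1000 cells) were removed. Cells were clustered with scanpy 1.11.5 (2000 variable genes, 30 principal components, Leiden resolution 1, spots 0.5), leaving out the members and the pathway lists. A class is called "-like" after its marker list, of which 1 gene is not reported here. CPM intervals are exact Poisson, ratio intervals the exact interval for 2 Poisson counts, with counts under 3 set to 3; the limit for a count of 0 is 3 counts. A gene entered a ratio count with at least 20 UMIs, and the ratio code was tested on simulated counts. Genes most like a member were the 3 with the highest r. The members, gene lists and marker lists were chosen with earlier results of these data known. Alternatives covered cell filters, doublets, resolution, scaling, gates and left-out sections. Python 3.11.15, numpy 2.4.6 and scipy 1.17.1 were used. Promoter sequences are from RefSeq (GRCm38.p6); 5 of 9 members had one.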

Additional observations from a re-analysis of the deposited data

Results flagged for a closer look

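In 6 of 40 pairs of a member and a zone with at least 20 UMIs in the zone of every section, both small intestinal sections had one sign of the log2 ratio (zone over other spots) and both large intestinal sections the other. Over all genes this held for 13.6% of 77238 such pairs, close to the 15% of the members, so the count is not a result about the members. The difference between the tissues was not tested, and sections of a tissue are technical duplicates.

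For Ereg in muscle spots the ratios were -0.87 and -1.51 in small and 0.62 and 0.79 in large intestine. For Ereg in fibroblast spots they were -0.47 and -1.34 in small and 0.68 and 0.89 in large intestine. In both zones the intervals of section 1 of large intestine held 0, as did that of section 1 of small intestine in fibroblast spots. By spot cluster, Ereg in large intestine was highest in the region led by Emp1, Cyp2c55 and Slc9a3 (9.72 and 9.62 CPM), above the muscle region led by Actg2, Vip and Cnn1 (6.56 and 6.01 CPM).

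For Nrg1 in plasma cell spots the ratios were 1.88 and 1.47 in small and -0.15 and -0.23 in large intestine, the latter pair with intervals that held 0. For Erbb2 in proliferating spots they were 0.18 and 0.47 in small and -0.28 and -0.33 in large intestine, and the interval of section 1 of small intestine held 0. For Erbb2 in goblet spots they were -0.028 and -0.029 in small and 0.11 and 0.13 in large intestine, and for Egfr in goblet spots -0.053 and -0.15 in small and 0.25 and 0.12 in large intestine; the small intestinal intervals held 0 in both pairs, as did those of section 1 of large intestine for Erbb2 and of section 2 of large intestine for Egfr.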

How the results depend on the processing

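No paired analysis was possible because the section numbers mark technical duplicates and no test between groups is made. Of the counts in the text, 45 recomputed values stayed within 1.5 times the reported one and 9 did not. Without the regenerative-type class, an alternative chosen after seeing the data, 1 organoid member was lower by 1 log2 unit in place of 4, and Areg reversed to 0.15. With the stricter cell filter 1 organoid member was higher in place of 0 (Egf, 1.10, with an interval from -0.30 to 2.84), 1 stem-like member was higher in small intestine in place of 2, and Nrg1 in the large intestinal fibroblast-like class was at most -0.33 over other cells, a limit from 0 UMIs set to 3 counts; the highest Nrg1 level was then in an unnamed cluster. Members with the same highest class in both tissue libraries numbered 4 with the looser cell filter and 1 by the mean of each cell's CPM, in place of 2. Visium members lower in small intestine numbered 3 without mitochondrial and ribosomal protein genes and 2 by the mean of each spot's CPM, in place of 1, and 1 to 2 over the settings that left out a section, with 2 (Egf, and Btc at -1.02) without section 2 of large intestine; over those settings 1 member was higher in small intestine, 3 to 4 in colon surface spots and 2 in villus tip spots. Members higher in villus tip spots numbered 1 at the 90th percentile gate, in place of 2. For single values the limit was the counting interval, or for Visium ratios between tissues the largest log2 difference between sections of a tissue. Changing only the UMI minimum could not move an organoid ratio, so those values count as unmoved. Of all single values, 612 recomputed ones stayed within that limit and 105 moved further. Another 2 whose interval had excluded 0 changed sign, Areg and Nrg1 as above. Others with intervals that held 0 did too, such as Ereg between fibroblast-like classes (0.23, and at most -2.41 with the looser cell filter and -2.13 with doublets kept) and Egfr there (-0.11, and 0.75 and 1.04). Depth limits Egf and Nrg1 in the organoids. The spot clusters are given as values of their own, not as an alternative gate.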
